A study of Mus musculus with 6 samples.

Results

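The mouse Fc gamma receptors and the signalling chain they share were followed across 6 RNA sequencing libraries of cultured macrophages. The 5 genes were Fcgr1, Fcgr3 and Fcgr4, which encode the activating receptors, Fcgr2b, which encodes the inhibitory receptor, and Fcer1g, which encodes the common gamma chain. They were taken by gene symbol from the 16836 genes of the deposited table, and all 5 were among the 12118 genes tested. The macrophages were grown from bone marrow, and 3 libraries came from Ube3a-/- mice (KO1 to KO3) and 3 from wild-type littermates (WT1 to WT3). The product of Ube3a is a HECT-type E3 enzyme, which attaches ubiquitin to other proteins. The labels give no strain, age, sex or culture conditions. They also do not tell how many animals the libraries stand for, and the tests below compare only the spread among these 6 samples.

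Fc gamma receptors bind the constant region of IgG antibodies and let a macrophage engulf, or respond to, antibody-coated particles and immune complexes. The activating receptors have no signalling motif of their own in their ligand-binding chain and pair with the gamma chain, whose ITAM tyrosines are phosphorylated by Src family kinases and then recruit the kinase Syk. The gamma chain also keeps these receptors at the cell surface. Fcgr2b carries an ITIM in its own tail, which recruits the lipid phosphatase Inpp5d (SHIP1) and dampens signals from the activating receptors. Fcgr1 is the high-affinity receptor, Fcgr3 and Fcgr4 bind mainly complexed IgG, and interferon gamma is known to raise Fcgr1 and Fcgr4 in mouse macrophages.

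On GRCm38, with the gene models of GENCODE M21, Fcgr1 lies alone on chromosome 3 at chr3:96282909-96293969, minus strand. The other 4 genes lie within 275.7 kb of each other on chromosome 1. In order along that chromosome they are Fcgr2b at chr1:170958617-170976547 on the minus strand, Fcgr4 at chr1:171018920-171029761 on the plus strand, Fcgr3 at chr1:171051174-171064935 on the minus strand and Fcer1g at chr1:171229572-171234365 on the minus strand. The sources used here do not name the build that the authors aligned to.

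Fcgr2b and Fcgr3 have nearly the same extracellular part. The longest run of coding sequence that their transcripts share without a mismatch is 129 bases. In Fcgr2b it covers 102 bases of exon 3 (chr1:170967980-170968081) and 27 bases of exon 4 (chr1:170966674-170966700). In Fcgr3 it covers 102 bases of exon 3 (chr1:171057691-171057792) and 27 bases of exon 4 (chr1:171054167-171054193). It is shown because a read that falls wholly within it cannot be told apart between an activating and the inhibitory receptor.
Fcgr2b and Fcgr3: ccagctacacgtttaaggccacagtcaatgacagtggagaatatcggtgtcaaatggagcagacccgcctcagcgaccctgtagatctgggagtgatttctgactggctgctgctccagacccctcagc
Of all 50-base windows in Fcgr3 exons, 9.58% occur also in another gene, and in each case that gene is Fcgr2b. The share is 4.38% for Fcgr2b, 166 of whose 249 shared windows lie in Fcgr3. With 100-base windows the shares are 2.54% for Fcgr3 and 1.40% for Fcgr2b. Fcgr1, Fcgr4 and Fcer1g share no 50-base window with another gene. The counts of Fcgr2b and Fcgr3 are therefore uncertain to the extent that shared reads were dropped or split, a setting that the sources used here do not state. An antisense gene model, Gm38204, also overlaps 155 exonic bases of Fcgr2b, and whether the counting used strand is not given either.

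The promoters of the 4 receptor genes are shown because those of the activating receptors hold motif matches that the Fcgr2b window lacks. Each runs 5′ to 3′ along the gene from 250 bases before to 50 bases after a RefSeq start on GRCm38.p6. Capitals mark matches to GAS (TTCNNNGAA, an element of interferon gamma responses), ISRE (GAAA, NN and GAAA in a row, an element of type I interferon responses) and the PU box (GAGGAA, the core site of the macrophage factor PU.1, here read as TTCCTC on the opposite strand), all searched on both strands. The windows are chr3:96293920-96294219 (Fcgr1, minus strand), chr1:171059354-171059653 (Fcgr3, minus strand, the first of 2 RefSeq starts 9 bases apart), chr1:171018676-171018975 (Fcgr4, plus strand) and chr1:170976022-170976321 (Fcgr2b, minus strand).
Fcgr1: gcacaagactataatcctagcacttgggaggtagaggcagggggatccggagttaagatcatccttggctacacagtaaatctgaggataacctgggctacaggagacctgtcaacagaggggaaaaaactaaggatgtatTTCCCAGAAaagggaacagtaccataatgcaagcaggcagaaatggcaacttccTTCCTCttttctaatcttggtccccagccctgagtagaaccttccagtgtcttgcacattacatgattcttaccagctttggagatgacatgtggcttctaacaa
Fcgr3: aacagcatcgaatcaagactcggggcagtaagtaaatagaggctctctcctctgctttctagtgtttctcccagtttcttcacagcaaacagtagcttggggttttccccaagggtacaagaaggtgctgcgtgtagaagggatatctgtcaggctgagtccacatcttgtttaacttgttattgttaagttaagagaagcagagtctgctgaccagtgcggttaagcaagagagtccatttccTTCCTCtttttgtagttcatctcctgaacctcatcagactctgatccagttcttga
Fcgr4: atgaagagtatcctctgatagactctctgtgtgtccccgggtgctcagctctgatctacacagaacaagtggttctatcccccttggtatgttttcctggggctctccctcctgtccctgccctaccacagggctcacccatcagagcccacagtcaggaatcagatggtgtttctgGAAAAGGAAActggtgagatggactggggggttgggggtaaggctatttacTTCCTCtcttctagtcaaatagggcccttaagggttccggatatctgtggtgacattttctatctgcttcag
Fcgr2b: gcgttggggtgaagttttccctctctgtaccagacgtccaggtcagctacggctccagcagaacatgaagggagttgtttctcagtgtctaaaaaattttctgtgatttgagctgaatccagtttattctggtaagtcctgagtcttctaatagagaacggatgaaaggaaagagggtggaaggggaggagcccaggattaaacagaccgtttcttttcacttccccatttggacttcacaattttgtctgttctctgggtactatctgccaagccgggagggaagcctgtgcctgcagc
The Fcgr1 window holds a GAS match that begins 109 bases before the start and a PU box at 55 bases. Fcgr4 holds an ISRE match at 73 bases, which overlaps no other match, and a PU box at 22 bases. Fcgr3 holds a PU box at 6 bases and no GAS or ISRE match. A C/EBP match (TTGCNNAA), not in capitals, begins 28 bases before the Fcgr3 start, and no window of the 5 genes holds TATAAA. Neither Fcgr2b nor Fcer1g has a match to any of these motifs in its window. The Fcgr3 and Fcgr2b windows lie inside the GENCODE genes, away from their outermost starts. The contrast in motifs between receptors therefore depends on the starts chosen. Among 32544 mouse promoters of the same length, 8.33% hold a GAS match, 3.45% an ISRE match, 28.1% a PU box, 10.8% a C/EBP match and 13.6% TATAAA, so a PU box in itself is common.

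Reads assigned to genes numbered 25454862 to 32294791 in KO libraries and 28651459 to 35517269 in WT libraries. Levels are CPM, which bring the libraries to a common size after the authors' own scaling, and 1 read is worth 0.0277 to 0.0400 CPM. The targeted gene, Ube3a, had 69.7, 61.2 and 77.0 CPM in KO1 to KO3, against 207.1, 193.7 and 177.6 CPM in WT1 to WT3 (limma, log2 fold change -1.47, adjusted p = 0.00444). Only Ube3a and Fah, an enzyme of tyrosine breakdown, were called changed among all genes, with Fah at 13.2 ± 2.17 CPM in KO, against 4.28 ± 0.646 CPM in WT (SD, n = 3 each). Core macrophage genes were abundant in all libraries, with the 20 genes of that list summing to 20972 to 24163 CPM in KO and 21428 to 24819 CPM in WT. None of 10 natural killer cell markers was in the table, nor were the B cell genes Cd79a and Pax5, the T cell genes Cd3e, Cd3d and Cd3g or the mast cell genes Fcer1a and Ms4a2. Some markers of those and other lists were measured: the B cell list summed to 32.3 to 67.8 CPM in KO and 31.2 to 56.9 CPM in WT, led in abundance by Ighm, the T cell list to 65.7 to 96.9 CPM in KO and 62.8 to 71.5 CPM in WT, nearly all of it Cd28, and the megakaryocyte and platelet list to 73.8 to 110.8 CPM in KO and 74.1 to 85.7 CPM in WT, nearly all of it Pf4. Replicate 2 stood apart in both genotypes, with 28 Xist reads in KO2 and 14 in WT2, against 30161 and 35256 in KO1 and KO3 and 41519 and 42232 in WT1 and WT3.

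All 5 genes averaged higher in KO than in WT, by 1.10-fold for Fcgr2b to 1.42-fold for Fcgr1, and none passed the test. The count called was 0 of 5 at a limma adjusted p under 0.05, against 0.0165% of all tested genes, and each member had an adjusted p of 0.866. At an unadjusted p under 0.05, Fcgr1, Fcgr3 and Fcgr4 were higher in KO, 3 of 5, against 1.68% of tested genes. With limma-voom on the reads the counts were also 0 and 3. Fold changes were positive for 5 of 5, against 50.4% of tested genes, with a median log2 fold change of 0.24 against 0.0015 over all genes tested. In these bulk samples more cells of a type and more RNA per cell cannot be told apart. The genes are known to be expressed together in macrophages, so the 5 values are not independent of each other.

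**Figure D1:**
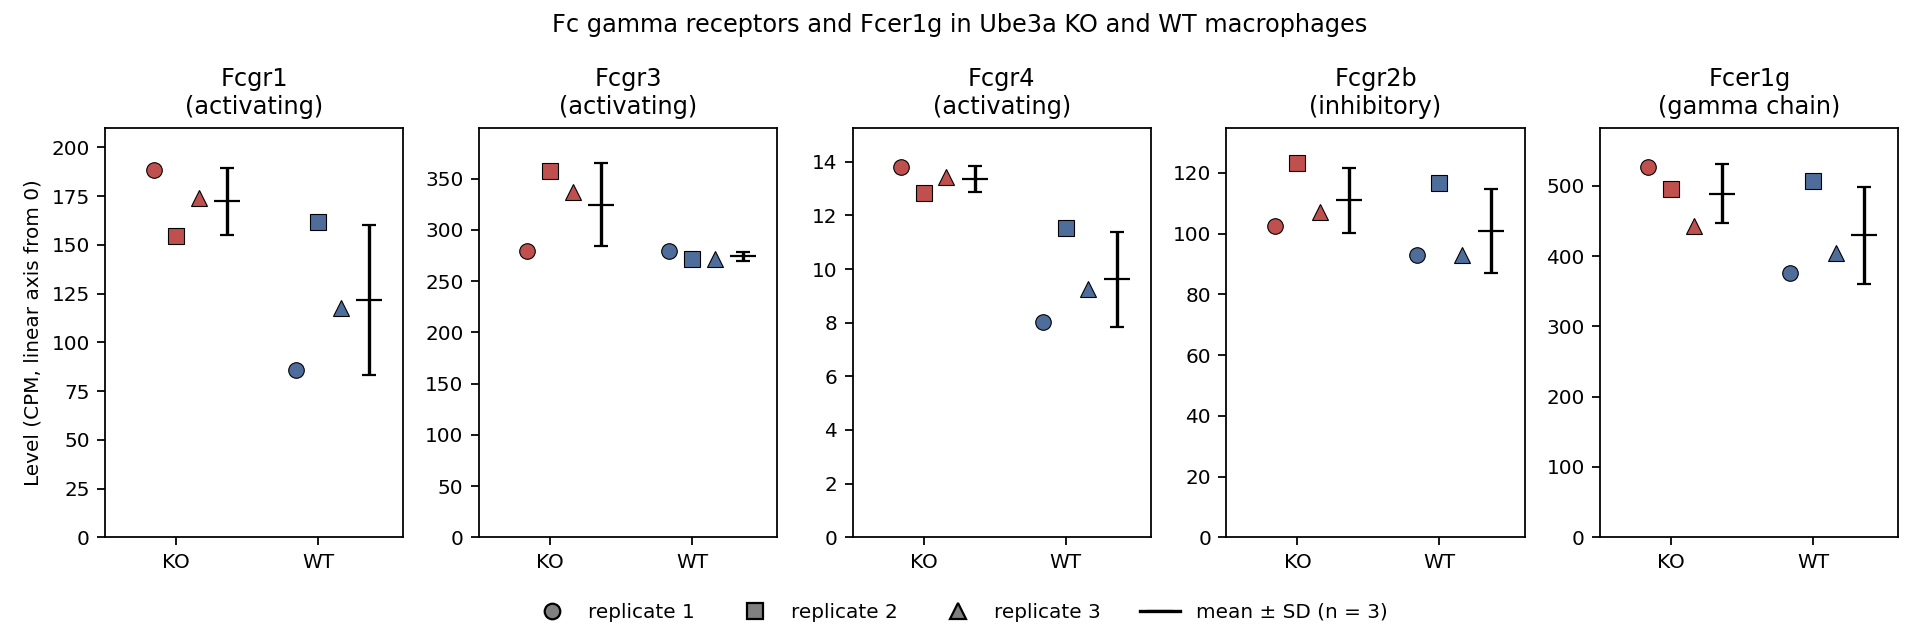
Level of each gene in CPM on a linear axis from 0, 1 panel per gene with its own scale; points are libraries, with KO left of WT, marker shapes give the replicate number, and bars give the mean ± SD (n = 3). All 3 KO points lie above all 3 WT points for Fcgr4 and, by less than 0.1 CPM, for Fcgr3, while the genotypes overlap for Fcgr1, Fcgr2b and Fcer1g.

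Fcgr4, the activating receptor with the ISRE match in its promoter, was the least abundant of the 5. It had 13.8, 12.9 and 13.4 CPM in KO1 to KO3, against 8.04, 11.5 and 9.26 CPM in WT1 to WT3. All KO libraries were above all WT libraries, and the WT libraries were the more spread out, with WT2 closest to KO. The means were 13.4 ± 0.478 CPM in KO and 9.61 ± 1.77 CPM in WT (SD, n = 3 each), a 1.39-fold difference. The log2 fold change was 0.45 with a 95% interval of 0.16 to 0.74 (limma, unadjusted p = 0.00724, adjusted p = 0.866). It ranked 37 among the 12118 genes by unadjusted p. The values rest on 345 to 436 reads per KO library and 251 to 334 per WT library, where counting error alone is at most 6.31%.

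Fcgr1, the high-affinity receptor and the gene with the GAS match, had the largest fold change of the 5. It had 188.3, 154.4 and 174.2 CPM in KO1 to KO3, against 85.6, 161.9 and 117.7 CPM in WT1 to WT3. The genotypes overlapped, since WT2 was above KO2, and KO was the higher in 8 of 9 pairs of libraries. The means were 172.3 ± 17.0 CPM in KO and 121.8 ± 38.3 CPM in WT (SD, n = 3 each), with a log2 fold change of 0.54 and a 95% interval of 0.07 to 1.01 (limma, unadjusted p = 0.0286, adjusted p = 0.866). Its spread within genotypes was high, at the 95.4th percentile of all tested genes, and WT1 alone was 2.20 times below KO1. Without WT1 the log2 fold change was 0.31.

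Fcgr3, the most abundant of the 4 receptors, had 279.1, 357.6 and 337.4 CPM in KO1 to KO3, against 279.0, 272.0 and 271.5 CPM in WT1 to WT3. The WT libraries were nearly equal, KO2 and KO3 stood above them, and KO1 was level with WT1, only 0.0822 CPM higher. The means were 324.7 ± 40.8 CPM in KO and 274.2 ± 4.20 CPM in WT (SD, n = 3 each). The log2 fold change was 0.24 with a 95% interval of 0.02 to 0.45 (limma, unadjusted p = 0.0365, adjusted p = 0.866). Fcgr3 and Fcgr4 were thus the 2 of 5 genes with all KO libraries above all WT libraries, against 4.41% of tested genes.

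Fcgr2b, the inhibitory receptor, had 102.7, 123.1 and 107.0 CPM in KO1 to KO3, against 92.9, 116.8 and 93.0 CPM in WT1 to WT3. The replicate 2 library was the highest in each genotype, and WT2 was above KO1 and KO3. The means were 110.9 ± 10.8 CPM in KO and 100.9 ± 13.8 CPM in WT (SD, n = 3 each), with a log2 fold change of 0.14 and a 95% interval of -0.11 to 0.39 (limma, unadjusted p = 0.234, adjusted p = 0.866). With a term for Xist class in the same fit, the log2 fold change was 0.14 with an unadjusted p of 0.0457 and an adjusted p of 0.767 (limma). With a replicate block instead, the unadjusted p was 0.0904 (limma). With the Xist term the other genes had unadjusted p-values of 0.0293 for Fcgr1, 0.0374 for Fcgr3, 0.00715 for Fcgr4 and 0.101 for Fcer1g (limma). The interval of Fcgr2b without the Xist term reaches below 0 and does not exclude a difference as large as that of Fcgr3.

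Fcer1g, the gamma chain, had 527.4, 496.2 and 443.5 CPM in KO1 to KO3, against 376.7, 507.3 and 405.3 CPM in WT1 to WT3. WT2 was above KO2 and KO3, so the genotypes overlapped. The means were 489.0 ± 42.4 CPM in KO and 429.8 ± 68.6 CPM in WT (SD, n = 3 each), with a log2 fold change of 0.19 and a 95% interval of -0.08 to 0.47 (limma, unadjusted p = 0.143, adjusted p = 0.866). In the authors' deposited table the log2 fold changes of the 5 genes were 0.545 for Fcgr1, 0.236 for Fcgr3, 0.496 for Fcgr4, 0.143 for Fcgr2b and 0.194 for Fcer1g, with unadjusted p-values of 0.0212, 0.0319, 0.00464, 0.217 and 0.127 in that order of genes.

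Between genes, levels were compared per kb of transcript. Per kb of all annotated exons, Fcer1g averaged 559.5 CPM in KO and 491.7 in WT, Fcgr3 187.1 and 157.9, Fcgr1 66.5 and 47.0, Fcgr2b 19.2 and 17.4, and Fcgr4 10.6 and 7.65, with KO given first for each gene. That order held in all 6 libraries. The place of Fcgr2b depends on the transcript model, because its exons in all models add up to 5.79 kb while its principal transcripts are 1578 to 3544 bases long. With the longer of these it averaged 31.3 CPM per kb in KO and 28.5 in WT, below Fcgr1. With the shorter it averaged 70.3 ± 6.84 in KO and 63.9 ± 8.75 in WT (SD, n = 3 each), above the Fcgr1 means of 66.5 ± 6.58 and 47.0 ± 14.8 but within the spread of the libraries in KO. Fcer1g and Fcgr3 stayed above the other genes, and Fcgr4 below them, with each length. By the exon lengths, Fcer1g ranked 39 of 12106 genes with a length and Fcgr4 ranked 5127.

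The balance of activating to inhibitory receptors was measured within each library as the log2 ratio of CPM. For Fcgr4 over Fcgr2b it was -2.90, -3.26 and -2.99 in KO1 to KO3, against -3.53, -3.34 and -3.33 in WT1 to WT3. All KO libraries were above all WT libraries, although KO2 was close to WT, and the mean difference was 0.35 (exact permutation test, two-sided, p = 0.1, n = 3 each). For Fcgr1 over Fcgr2b the ratio was 0.88, 0.33 and 0.70 in KO1 to KO3, against -0.12, 0.47 and 0.34 in WT1 to WT3. The genotypes overlapped, since KO2 was below WT2 and WT3, and the mean difference was 0.40, or 0.23 without WT1 (exact permutation test, two-sided, p = 0.3, n = 3 each). For Fcgr3 over Fcgr2b it was 1.44, 1.54 and 1.66 in KO1 to KO3, against 1.59, 1.22 and 1.55 in WT1 to WT3, a mean difference of 0.095 with overlapping genotypes (exact permutation test, two-sided, p = 0.7, n = 3 each). With 3 libraries per genotype the smallest p this test can give is 0.1. Adjusted over the 5 ratios compared, its p was 0.167 for Fcgr4, 0.375 for Fcgr1 and 0.7 for Fcgr3. The Fcgr3 difference was -0.021 without WT2, so its direction rests on that library, and its 2 genes share the stretch of sequence printed above.

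The mean of the 3 activating receptors on the log2 scale, minus Fcgr2b, was -0.19, -0.47 and -0.21 in KO1 to KO3, against -0.69, -0.55 and -0.48 in WT1 to WT3. The averages were -0.29 ± 0.15 in KO and -0.57 ± 0.11 in WT (SD, n = 3 each), a difference of 0.28, and KO was the higher in 9 of 9 pairs, with KO2 and WT3 nearly level. This mean weights the scarce Fcgr4 like the abundant Fcgr3. When CPM per kb were summed over the activating receptors instead, the log2 difference was 0.17 and the genotypes overlapped. Divided by Fcgr2b, the sum was 13.79, 12.97 and 14.74 in KO1 to KO3, against 12.48, 11.32 and 13.03 in WT1 to WT3. KO2 was thus just below WT3. These values are per kb of all annotated exons, which is 5.79 kb for Fcgr2b, while its principal transcripts are 1578 to 3544 bases long. A shorter length for Fcgr2b lowers the ratio by the same factor in every library, so its size is not settled. Of the activating sum, Fcgr3 made up 65.8%, 74.7% and 71.4% in KO1 to KO3, against 80.3%, 68.6% and 74.7% in WT1 to WT3. The share of Fcgr1 was 29.7%, 21.6% and 24.7% in KO1 to KO3, against 16.5%, 27.4% and 21.7% in WT1 to WT3, so the genotypes overlapped for both. The gamma chain over the mean of the activating receptors was 2.55, 2.48 and 2.26 in KO1 to KO3, against 2.71, 2.67 and 2.60 in WT1 to WT3. Every KO library was below every WT library, with a mean difference of -0.23, or -0.15 without KO3. Against the sum of CPM per kb, the gamma chain was 2.47, 2.06 and 1.86 times as high in KO1 to KO3. In WT1 to WT3 it was 2.15, 2.54 and 2.22 times as high, so the genotypes overlapped, with KO1 above WT1 and WT3. The exact permutation test, two-sided, gave p = 0.1 (n = 3 each) for the activating mean over Fcgr2b and for Fcer1g over that mean. This is the smallest p it can give, and adjusted over the 5 ratios compared it was 0.167 for each. The members of every ratio were chosen with earlier results known.

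**Figure D2:**
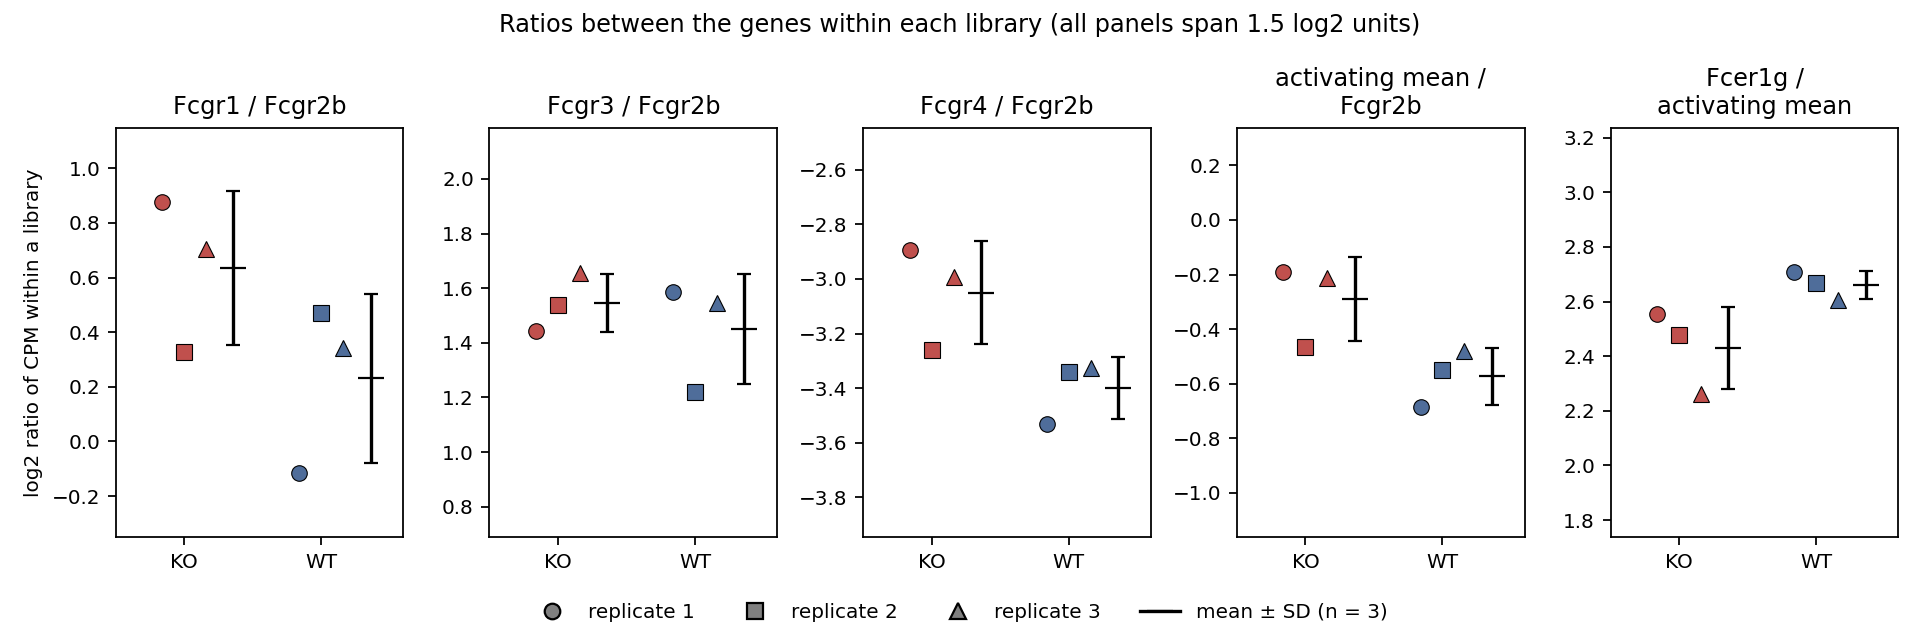
Log2 ratio of CPM within a library for each activating receptor over Fcgr2b, for the mean of the activating receptors over Fcgr2b and for Fcer1g over that mean; points are libraries with KO left of WT, shapes give the replicate number, bars give the mean ± SD (n = 3), and each panel spans 1.5 log2 units. KO lies above WT without overlap for Fcgr4 over Fcgr2b and for the activating mean, and below WT for Fcer1g over the activating mean.

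The replicate 2 libraries, which nearly lacked Xist reads, were then set apart from the other 4. Among replicates 1 and 3 only, with 2 libraries per genotype, the log2 fold change of Fcgr1 was 0.84 (limma, unadjusted p = 0.000183, adjusted p = 0.0557) and that of Fcgr4 was 0.60 (limma, unadjusted p = 0.000636, adjusted p = 0.0714). Neither passed the threshold, and over all 6 libraries both had an adjusted p of 0.866 in limma. The subset leaves out WT2, the WT library with the most Fcgr1 and Fcgr4. Like the other tests, it was chosen with earlier results of these data known. Fcer1g was at 0.31, Fcgr2b at 0.17 and Fcgr3 at 0.16, with adjusted p-values of 0.239, 0.392 and 0.603 in that order. In all 5 genes the 2 KO libraries were above the 2 WT libraries, against 21.9% of tested genes, and 0 of 5 were called, against 0.198%. Between KO2 and WT2 alone, the difference was -0.07 for Fcgr1, -0.03 for Fcer1g, 0.08 for Fcgr2b, 0.14 for Fcgr4 and 0.39 for Fcgr3, with no replicate to test it. The difference between these 2 sets of libraries was itself tested as an interaction in limma over all genes, a test chosen after seeing the data. It called 1.86% of tested genes and 0 of the 5, of which Fcgr1 came nearest (limma, unadjusted p = 0.00383, adjusted p = 0.0955). For Fcgr4 the interaction had an adjusted p of 0.302, for Fcer1g 0.391, for Fcgr3 0.555 and for Fcgr2b 0.770. The sex of the animals is not in the labels, and Xist class and replicate number cannot be told apart.

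**Figure D3:**
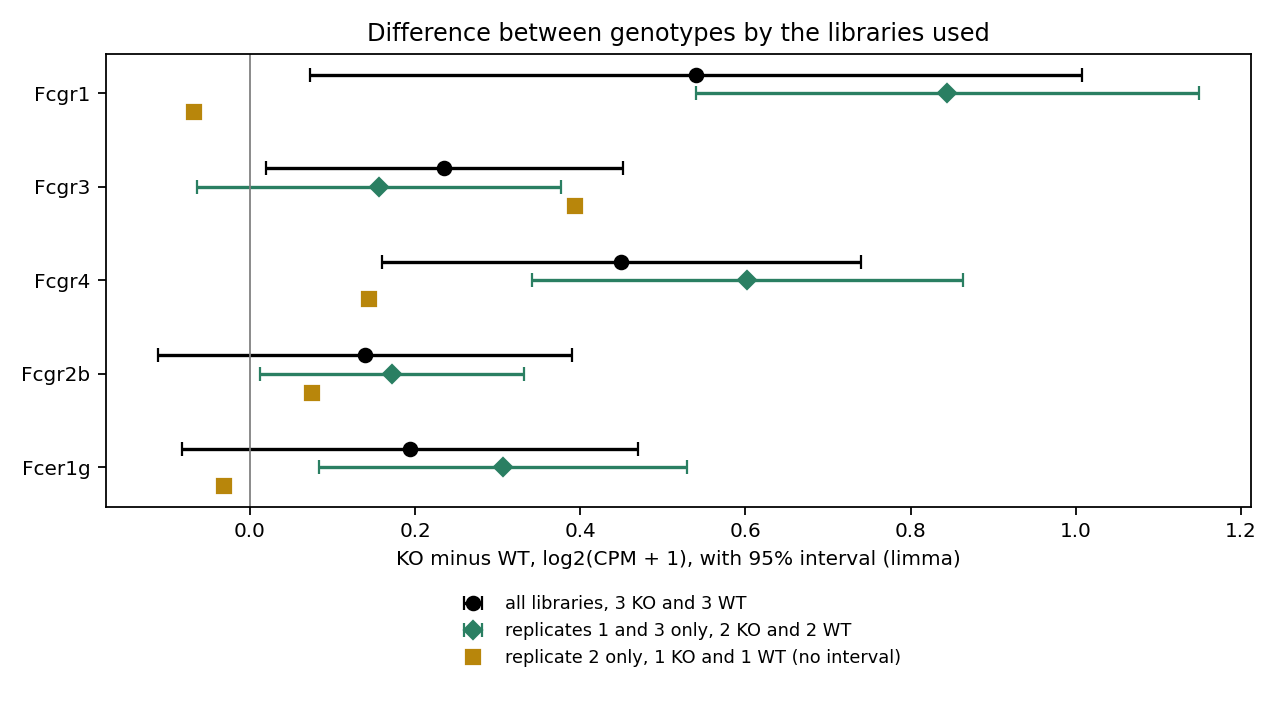
KO minus WT difference on log2(CPM + 1) for each gene: circles for all 3 KO and 3 WT libraries and diamonds for replicates 1 and 3 only, both with 95% limma intervals, and squares for KO2 minus WT2, which has no interval. Fcgr1 moves most between the sets, with 0.54 over all libraries, 0.84 in replicates 1 and 3 and -0.07 in replicate 2.

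Among themselves, Fcgr1 and Fcgr4 varied most alike over the 6 libraries (Pearson r = 0.967), followed by Fcgr1 and Fcer1g (0.879) and Fcgr4 and Fcer1g (0.846). Fcgr3 had 0.338 with Fcgr1, 0.530 with Fcgr4 and 0.198 with Fcer1g. Fcgr2b had values between 0.601, with Fcgr3, and 0.751, with Fcer1g. These correlations run over the KO and WT libraries together, 6 in all, so a difference between genotypes enters each r. Fcgr1, Fcgr4, Fcer1g and Fcgr2b were all lowest in WT1 and next lowest in WT3, and the first 3 of these were highest in KO1.

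Interferon-stimulated genes were set beside this pattern, and none of their relations to the 5 genes passed the test. Relative to the mean of all libraries, the mean log2 level of the 32 genes was 0.82, -0.68 and 0.13 in KO1 to KO3, against -0.61, 0.70 and -0.36 in WT1 to WT3. KO1 and WT2 were thus high and KO2 and WT1 low, which is not a split by genotype. WT2 is also the WT library with the most Fcgr1 and Fcgr4, and WT1 the one with the least. Across the 6 libraries the interferon level had r = 0.692 with Fcgr1 (exact permutation p = 0.131, Spearman rho 0.771, exact permutation p = 0.103) and r = 0.544 with Fcgr4 (exact permutation p = 0.253, rho 0.543, exact permutation p = 0.297). Adjusted over the 10 relations computed, these were 0.269 and 0.340 for Fcgr1 and 0.361 and 0.425 for Fcgr4. Without KO1 and WT2, the 2 libraries farthest from the median of the interferon level, r was 0.552 for Fcgr1 and 0.450 for Fcgr4. For Fcer1g r was 0.661 (exact permutation p = 0.163, adjusted 0.271), and 0.014 without its 2 farthest libraries, so it rested on them. For Fcgr3 r was -0.381 and turned to 0.144 without them, and for Fcgr2b it was 0.180 and -0.085. The part of the interferon level in the Fcgr1 and Fcgr4 differences was not tested.

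Fcer1g followed the core macrophage genes closely. The mean level of the 19 tested genes of that list was 0.13, 0.11 and -0.07 in KO1 to KO3, against -0.18, 0.18 and -0.16 in WT1 to WT3, which is nearly the order of Fcer1g itself. Over the 6 libraries the 2 had r = 0.967 (exact permutation p = 0.00417, adjusted over 10 relations 0.0417) and rho = 0.943 (exact permutation p = 0.0167, adjusted 0.167). The rank version thus did not pass after adjustment. The permutations, here and for the interferon level, ran over all 6 libraries without regard to genotype. Without WT1 and WT3, the 2 libraries farthest from the median of the list, r was 0.918, with WT2 the only WT library left. With Fcgr1 the list had r = 0.759 (exact permutation p = 0.0681, adjusted 0.264), and this rested on those 2 libraries, since r was -0.23 without them. For Fcgr2b r was higher, at 0.811 (exact permutation p = 0.0792, adjusted 0.264), and 0.366 without those libraries. For Fcgr4 r was 0.720 and for Fcgr3 0.143, and without them these turned to -0.537 and -0.580. Neutrophil genes ran the other way, with 0 of 5 tested genes positive, but they were scarce, with the list summing to 8.32 to 21.3 CPM in KO and 10.5 to 32.9 CPM in WT, and its markers Ly6g and Retnlg were not in the table. The part of these levels in the Fc receptor differences was not tested.

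**Figure D4:**
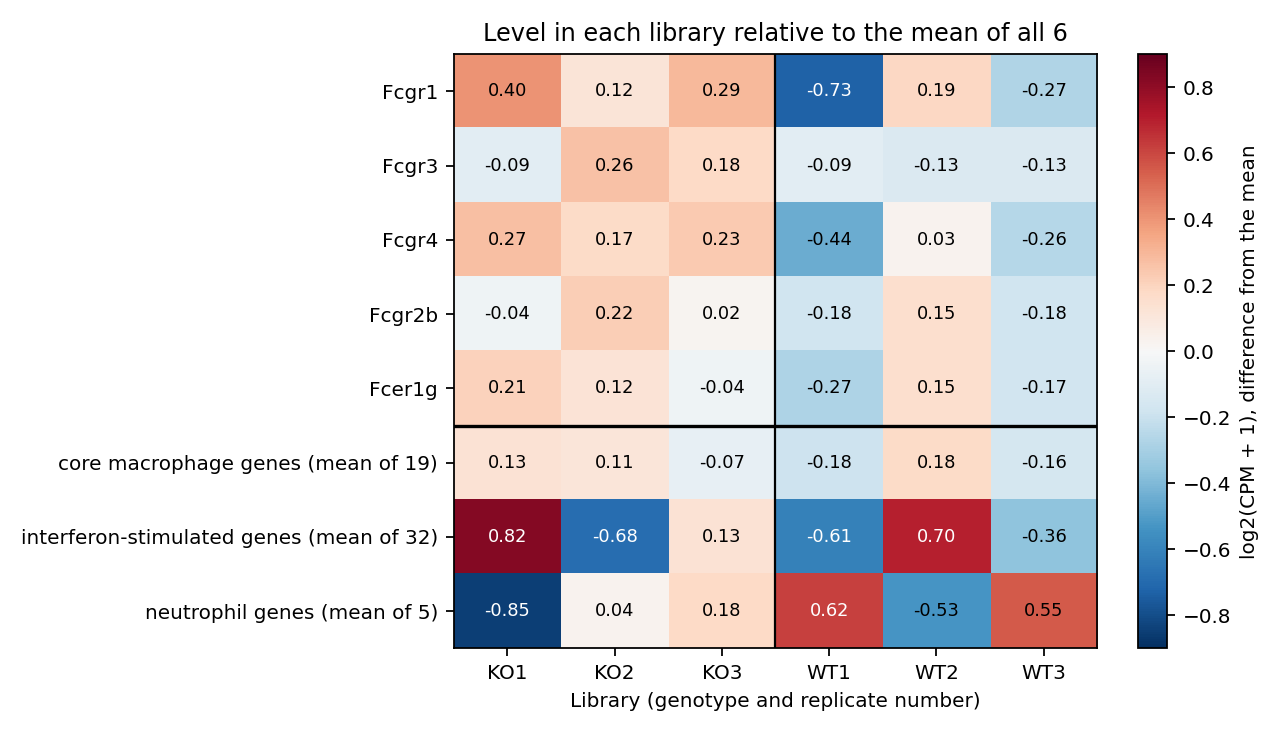
Level of each gene, and mean level of 3 gene lists, in each library relative to the mean of all 6, on log2(CPM + 1); red is above and blue below the mean, and the vertical line parts KO on the left from WT on the right. WT1 is lowest for Fcgr1 (-0.73), Fcgr4 (-0.44) and Fcer1g (-0.27), and WT2 is above the mean for these 3 genes and for the interferon-stimulated genes (0.70).

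By the likeness of pattern over the 6 libraries, out of 8538 other genes with at least 10 CPM, Fcgr1 was closest to Thoc5, Chmp4b and Msra (Pearson r of 0.995, 0.987 and 0.987). Fcgr3 was closest to Pxk, Arhgef11 and Blvra (0.986, 0.980 and 0.974) and Fcgr4 to Serpinb8, Gnpda1 and Arl11 (0.992, 0.987 and 0.986). Fcgr2b was closest to Acss1, Ogg1 and Dnajc18 (0.990, 0.988 and 0.986). Fcer1g was closest to Vav1, Myo18a and Arid5a (0.999, 0.998 and 0.997), where Vav1 is an exchange factor that acts after ITAM receptors. With 6 libraries and 8538 genes searched, high values of r carry no test.

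The genes that act around the receptors held no called gene in any list. Of the kinases, adaptors and effectors that act after activating Fc receptors, 35 of 36 were tested, with 21 positive and 14 negative fold changes and a median log2 fold change of 0.04. None was higher and 1 was lower in KO at an unadjusted p under 0.05, a rate at which 2.44% of all tested genes were lower. That gene was Fgr, a Src family kinase of myeloid cells, with 13.4, 22.2 and 15.5 CPM in KO1 to KO3, against 31.8, 19.4 and 28.7 CPM in WT1 to WT3. KO2 was above WT2, and the log2 fold change was -0.62 (limma, unadjusted p = 0.0224, adjusted p = 0.866). Tec, a kinase of the same pathway, came next with 62.2 ± 2.18 CPM in KO and 57.0 ± 2.45 CPM in WT (SD, n = 3 each). Syk itself had 404.6 ± 19.7 CPM in KO and 391.1 ± 28.9 CPM in WT.

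On the inhibitory side, the 11 tested phosphatases and adaptors that act after ITIM receptors, with Csk, had 6 positive and 5 negative fold changes and a median of 0.03. None was higher and, against 2.44% of all tested genes, 2 were lower at an unadjusted p under 0.05. These were Pag1, the membrane adaptor that recruits the Src-inhibiting kinase Csk, at 61.4 ± 3.94 CPM in KO against 69.8 ± 4.52 CPM in WT, and Rasa1, a Ras GTPase-activating protein, at 140.2 ± 15.6 CPM in KO against 166.0 ± 15.4 CPM in WT (SD, n = 3 each, adjusted p = 0.866 for both in limma). Other ITIM receptors of macrophages had 3 positive and 10 negative fold changes among 13 tested, with a median of -0.08, whereas that of Fcgr2b was positive. None was higher and, against 2.44% of all tested genes, 2 were lower at an unadjusted p under 0.05. Of these, Lilrb4a averaged 601.5 ± 101.4 CPM in KO and 752.7 ± 84.0 CPM in WT, and Clec4a2 averaged 30.5 ± 4.04 CPM in KO and 36.8 ± 2.17 CPM in WT (SD, n = 3 each, adjusted p = 0.866 for both in limma).

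Receptors other than Fc gamma receptors that use the gamma chain had 2 positive and 6 negative fold changes among 8 tested, with a median of -0.06. The smallest unadjusted p-values among them were those of Clec4a3, with a log2 fold change of 0.34, and of Clec4d, with -0.15, both C-type lectins, and neither was under 0.05. Of other Fc receptor genes, 4 of 13 were in the table and all 4 had positive fold changes. Fcrls, an Fc receptor-like gene of myeloid cells, averaged 94.1 ± 2.70 CPM in KO and 61.2 ± 41.5 CPM in WT (SD, n = 3 each), a wide spread in WT, and Fcgrt, the neonatal Fc receptor, averaged 37.9 ± 7.34 CPM in KO and 34.1 ± 4.44 CPM in WT. The 30 genes of the phagocytic cup had 17 positive and 13 negative fold changes with a median of 0.01 and none at an unadjusted p under 0.05. The smallest unadjusted p-values were 0.104 for Rab5c at 400.4 ± 22.0 CPM in KO against 365.9 ± 18.3 CPM in WT and 0.124 for Rab7 at 341.0 ± 0.633 CPM in KO against 317.7 ± 13.6 CPM in WT.

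Of 20 transcription factors and cytokine signalling genes known to act on Fc receptor genes, 13 had positive and 7 negative fold changes, with a median of 0.05 and none at an unadjusted p under 0.05. Tgfbr1, a TGF-beta receptor, averaged 131.8 ± 16.3 CPM in KO and 156.5 ± 17.6 CPM in WT. Spi1, which encodes PU.1, averaged 299.4 ± 31.3 CPM in KO and 256.9 ± 28.2 CPM in WT (SD, n = 3 each). Among the 32 interferon-stimulated genes 29 had positive fold changes, against 50.4% of all tested genes, with a median of 0.17. As genes of 1 response they are not independent of each other. The only one at an unadjusted p under 0.05 was lower in KO, as were 2.44% of all tested genes. This was Cxcl10, a chemokine, with 4.84, 4.59 and 6.38 CPM in KO1 to KO3, against 7.68, 6.40 and 6.93 CPM in WT1 to WT3, so all KO libraries were below all WT libraries by a narrow margin, as in 5.55% of tested genes (limma, log2 fold change -0.36, adjusted p = 0.866). Gbp2, an interferon-induced GTPase, had the next smallest p, with 15.9 ± 5.09 CPM in KO and 13.1 ± 4.80 CPM in WT (SD, n = 3 each).

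Genes within 500 kb of the 4 chromosome 1 members numbered 38 in the table, of which 26 were tested. They had 17 positive and 9 negative fold changes, with a median log2 fold change of 0.07, and 0 were called. Of the 26, 2 were higher at an unadjusted p under 0.05, against 1.68% of all tested genes. These 2 were Sdhc and Usp21. Sdhc, a subunit of succinate dehydrogenase, had 145.6 CPM in KO libraries and 131.8 CPM in WT libraries. Usp21, a deubiquitinase, had 19.8 CPM in KO libraries and 17.1 CPM in WT libraries. The log2 fold changes were 0.14 for Sdhc and 0.21 for Usp21 (limma, adjusted p = 0.866 for both).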

How the data were processed

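Polyadenylated RNA of 6 macrophage cultures was sequenced after Direct-zol purification and KAPA mRNA HyperPrep library construction, per the labels' protocols. The submitters' processing notes name FastQC 0.11.15, Trimmomatic 0.36, Cufflinks, HISAT2 2.1.0 and HTSeq 0.11.0, and the sources used here do not state their roles, the build, the annotation or the strand setting. The authors deposited log2 CPM values, log2 fold changes and unadjusted p-values for 16836 genes, with the decimal marks of larger values lost. Marks were restored because 2 to the power of each value, less a shared offset, is a whole multiple of the CPM of 1 read (100% of values whole within 1e-06). This returned reads and CPM on the authors' scaled library sizes, 0.982 to 1.02 times the reads in the table. limma-voom on these reads over all 16836 genes, with no filter, gave the 16830 readable p-values of the authors' deposited table to within a relative gap of 5.32e-11.

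Genes with at least 1 CPM in 3 libraries were kept (12118), and limma 3.58.1 (trend, R 4.3.3) was run on log2(CPM + 1) with a term for genotype alone, which understates fold changes of low genes. Adjusted p-values are Benjamini-Hochberg over all genes tested, two-sided, with a threshold of 0.05. The plan named a count test for raw counts; the deposited values are log2 CPM, so the test for normalized values was used. Exact permutation tests used scipy 1.17.1. The members, gene lists and tests were chosen with earlier results of these data known. Genes named are the members, Ube3a, the 2 genes of each pathway list with the smallest unadjusted p, and the 3 genes with the highest Pearson r to each member over 6 libraries; cell type markers are named only to say which the table holds; Syk, Fah, Sdhc and Usp21 were added after their values were seen. Sequences are from RefSeq (GRCm38.p6) and GENCODE M21, with all 5 members matched.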

Additional observations from a re-analysis of the deposited data

Results flagged for a closer look

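The direction of Fcgr1 and Fcer1g was opposite in the libraries with and without Xist reads, a difference that did not pass its test. In the replicate 2 pair, KO2 minus WT2 on log2(CPM + 1) was -0.0682 for Fcgr1 and -0.0318 for Fcer1g. Both values were smaller in size than the SD within genotypes on that scale, 0.338 for Fcgr1 and 0.181 for Fcer1g. In replicates 1 and 3, which hold Xist reads, both KO libraries were above both WT libraries, with differences of 0.84 for Fcgr1 and 0.31 for Fcer1g. The test of the difference itself, an interaction term in limma over all genes that was chosen after seeing the data, gave an adjusted p of 0.0955 for Fcgr1 and 0.391 for Fcer1g, so neither passed. The replicate 2 class holds 1 library per genotype.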

How the results depend on the processing

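The 5 members had positive log2 fold changes and 0 calls under each of 14 alternatives. The ranges were 0.31 to 0.84 for Fcgr1, 0.16 to 0.34 for Fcgr3, 0.34 to 0.60 for Fcgr4, 0.063 to 0.25 for Fcgr2b and 0.11 to 0.32 for Fcer1g. Libraries that moved a member by over 1.5 times were WT1 (0.31 for Fcgr1, 0.085 for Fcgr2b and 0.11 for Fcer1g without it), WT2 (0.25 for Fcgr2b and 0.32 for Fcer1g without it), WT3 (0.086 for Fcgr2b without it) and KO2 (0.063 for Fcgr2b without it); leaving out both replicate 2 libraries gave 0.84 for Fcgr1, 0.16 for Fcgr3 and 0.31 for Fcer1g. The number of genes called was 2 over all libraries. It was 1 without a filter, at a minimum of 5 CPM and with limma-voom, 24 without both replicate 2 libraries, and 1 to 8 when single libraries were left out, with 8 without WT2. Fcgr3 over Fcgr2b was 0.095 over all libraries and changed sign to -0.0167 without both replicate 2 libraries and to -0.0206 without WT2; its range without single libraries was -0.0206 to 0.163. The activating mean over Fcgr2b stayed positive, at 0.226 to 0.382, and the summed CPM per kb over Fcgr2b gave 0.173. The causes were not tested. Whether the replicate numbers pair the samples is not known. After the mean of each genotype was taken off, same-numbered libraries correlated at -0.216, -0.134 and 0.140. Deviations from means of 3 libraries cannot decide this, and the libraries that nearly lacked Xist reads, KO2 and WT2, share a number. With a replicate block 2 genes were called and no member. Depth limits Fcgr4 most, where 251 reads in WT1 carry a counting error of 6.31%.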
